A study of Mus musculus with 2 samples.

Results

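Transcripts of 7 chemokine genes were followed cell by cell in mouse LSK cells: Cxcl10, Ccl5, Ccl3, Ccl4, Ccl2, Cxcl2 and Ccl9, out of 31053 genes in the matrix. They were chosen by measured values, since Cxcl10 and Ccl5 had led a group of progenitors in a clustering of these same cells, so every level given here is a description and none was tested. LSK cells are bone marrow cells without lineage markers that carry Sca-1 and c-Kit, and both stem cells and early progenitors are among them. They came from C57BL/6JRj mice with no mutant allele or treatment named in the labels, 4 young (yLSK, 3 to 5 months old) and 4 old (oLSK, 22 to 28 months old). Each age gave 1 CITE-Seq library, a method that counts the transcripts of a cell together with antibody tags bound to its surface. A barcode ends in suffix 1 or 2 according to its library, and the sources used here pair neither suffix with an age. The suffixes are therefore given side by side, and no comparison of ages was made.

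Of 4688 cells, 4068 had under 10% mitochondrial UMIs and over 1500 genes (1524 of suffix 1, 2544 of suffix 2), and all 7 genes were detected in them. Depth is the number of UMIs in a cell, each UMI standing for 1 captured molecule. Median depth was 15024 UMIs in suffix 1 and 14767 in suffix 2, and the suffixes shared 0 barcodes. Kit, which encodes a receptor used in the sort, had a UMI in 83.2% of cells and Ly6a, which encodes Sca-1, in 91.7%, and of the lineage antigens Itgam had a UMI in 18.0%, Cd4 in 1.08% and Cd8a in 0.123%, with Cd3e and Ly6g at 0 in all 4068. Levels are given in CPM, the UMIs of a gene per 1000000 UMIs over the cells of a group. Bracketed ranges, except that of the depth ratio, are exact 95% intervals (binomial for shares, Poisson for levels, conditional binomial for ratios) and cover counting error alone, since cells of 1 library are not replicates.

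Chemokines are small secreted proteins that guide the migration of cells carrying the matching receptor. CXCL10 binds CXCR3 and is a classical product of cells exposed to interferon. CCL5, CCL3 and CCL4 are made by activated lymphocytes and myeloid cells, and CCL3 is also known as an inhibitor of stem and progenitor cell proliferation. CCL2 binds CCR2 and draws monocytes, CXCL2 binds CXCR2 and draws neutrophils, and CCL9 is a ligand of CCR1 made by myeloid cells.

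The genes lie on 2 chromosomes (GRCm38). Cxcl10 covers chr5:92346638-92348889 on the minus strand, 18558 bases from its relative Cxcl9, and Cxcl2 lies 1440699 bases away at chr5:90903871-90905938. On chromosome 11, Ccl5 (chr11:83525778-83530518), Ccl9 (chr11:83572919-83578636), Ccl3 (chr11:83647844-83649355) and Ccl4 (chr11:83662584-83664683) lie near each other, with 13228 bases between Ccl3 and Ccl4. Ccl2 (chr11:82035571-82037453) lies 1488324 bases before Ccl5.

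The sequence just upstream of the start site is shown for Cxcl10 because the transcripts most like it across cells were interferon-stimulated. Its 250 bases (chr5:92348890-92349139, minus strand) stand beside those of Ifit3 (chr19:34583279-34583528, plus strand) and Ifit1 (chr19:34640639-34640888, plus strand), which led the cells with the most Cxcl10. Sequences are from RefSeq (GRCm38.p6), written from 5′ to 3′, and capitals mark GAAA, any 2 bases and GAAA on either strand, the core of an interferon-stimulated response element (ISRE).
Cxcl10: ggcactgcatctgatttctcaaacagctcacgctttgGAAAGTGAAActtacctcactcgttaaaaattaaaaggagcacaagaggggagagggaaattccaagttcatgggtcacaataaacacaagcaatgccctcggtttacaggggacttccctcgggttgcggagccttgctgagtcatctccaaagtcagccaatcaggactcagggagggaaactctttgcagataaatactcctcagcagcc
Ifit3: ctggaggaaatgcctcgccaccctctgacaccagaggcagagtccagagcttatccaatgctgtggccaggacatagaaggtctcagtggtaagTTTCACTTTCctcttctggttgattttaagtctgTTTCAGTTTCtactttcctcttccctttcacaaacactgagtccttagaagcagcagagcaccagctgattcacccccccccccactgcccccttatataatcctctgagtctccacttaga
Ifit1: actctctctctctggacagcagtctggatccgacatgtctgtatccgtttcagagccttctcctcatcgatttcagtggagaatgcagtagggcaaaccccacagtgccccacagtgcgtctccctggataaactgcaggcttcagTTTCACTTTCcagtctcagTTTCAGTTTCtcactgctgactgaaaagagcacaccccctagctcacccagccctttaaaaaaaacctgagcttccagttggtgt
The Cxcl10 window held 1 match, at bases -213 to -204, and the Ifit3 and Ifit1 windows held 2 each. The motif was present in 2.98% of 32851 promoter windows of the same length and in 15 of the 31 windows of the interferon-stimulated list. The windows of Ccl3, Cxcl2 and Ccl9, the other members in the table (4 of 7), held none. The kB-type motif (GGG, any 3 bases, T, any base, CC), searched on both strands and present in 14.9% of all windows, matched the Cxcl10 window at -159 to -150 (GGGAAATTCC) and at the overlapping positions -104 to -95 and -103 to -94. It also matched the windows of Cxcl2 and Ccl9, with no match in that of Ccl3, and the GAS-type motif TTCNNNGAA (7.02% of windows) matched none of the 4. The motifs were chosen after the levels had been seen, and a match is a run of letters, not a binding site.

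Cxcl10 and Ccl5 were held by few cells, and a handful of these held most of the transcripts. Cxcl10 had a UMI in 117 cells, 2.88% (2.38 to 3.44), and 76 of these held 1 UMI. The 25 cells with 5 UMIs or more held 90.3% of its 1174 UMIs, and 4 cells held 50% of them. The highest counts in a cell were 336, 134, 86, 81 and 80 UMIs.

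Ccl5 had a UMI in 137 cells, 3.37% (2.83 to 3.97), of which 81 held 1 UMI. The 21 cells with 5 or more held 80.0% of its 828 UMIs, with 97, 81, 68, 64 and 63 in the highest. No cell held between 11 and 24 Ccl5 UMIs: 11 cells stood at 25 or more, and the other 10 held 7 to 10. With each cell thinned to 9000 UMIs, the variance over the mean was 90.9 for Cxcl10 and 38.8 for Ccl5, ranks 9 and 15 of 12939 genes.

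The other members were spread over more cells or were near the detection limit. Ccl4 had a UMI in 1736 cells (42.7%, 41.1 to 44.2), and its 10 highest cells held 7.63% of its 3484 UMIs. Ccl9 had a UMI in 1141 cells (28.0%, 26.7 to 29.5) and Ccl3 in 824 (20.3%, 19.0 to 21.5), with highest counts of 28 and 26 UMIs. Their variance over the mean was 3.94 for Ccl3, 3.37 for Ccl4 and 2.94 for Ccl9, far below the values of Cxcl10 and Ccl5.

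Cxcl2 was found in 33 cells with 69 UMIs, 31 of them in 4 cells. Ccl2 was found in 16 cells with 17 UMIs, at most 2 in a cell, which is too few to describe further. In all, 2604 cells (64.0%) held at least 1 of the 7 and 1097 held 2 or more.

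**Figure D1:**
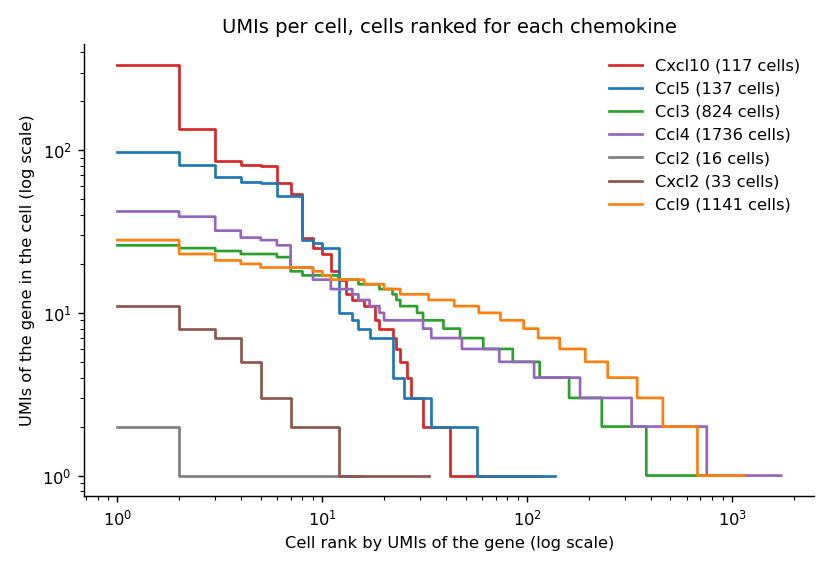
UMIs of each chemokine in a cell (y axis, log scale) against the cell's rank by that gene (x axis, log scale), for the cells with at least 1 UMI of it. The Cxcl10 and Ccl5 curves start at 336 and 97 UMIs and drop steeply, while those of Ccl3, Ccl4 and Ccl9 start at 26, 42 and 28 and run past 800 cells.

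Depth and background differed between members. Cells holding Cxcl10 or Ccl5 (247 cells) had a median depth of 15738 UMIs against 14816 in the other 3821, a ratio of 1.06 (1.01 to 1.12). That range is an approximate 95% interval of the first median over a fixed second one, and reflects spread between cells. The median depth of the 25 Cxcl10 cells with 5 UMIs or more was 14954 and that of the 21 such Ccl5 cells 14856, close to the 14856 and 14841 of the cells at 0, so the highest counts did not sit in the deepest cells. Ccl9 cells were deeper, at 18921 against 14039, a ratio of 1.35. Thinning to 9000 UMIs in 3825 cells (243 shallower ones left out) brought the shares to 1.96% for Cxcl10, 2.12% for Ccl5, 14.1% for Ccl3, 29.8% for Ccl4 and 21.0% for Ccl9.

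Cells with over 30% immunoglobulin UMIs (12 cells) were used to look for free transcripts, although lymphocytes can make CCL5, CCL3 and CCL4 and these cells are therefore an imperfect reference. Cxcl10, Ccl3, Ccl4, Ccl2 and Cxcl2 were each at 0 of 12 cells at a median depth of 34073, which allows a share of up to 25%. Ccl5 and Ccl9 had a UMI in 1 of the 12 each (8.33%, 0.211 to 38.5). So few cells bound the background only loosely. Between the gates described below, set by surface tags, the shares of some members differed, at 3.06% (1.79 to 4.86) and 26.7% (24.96 to 28.4) for Ccl3 and at 3.60% (2.21 to 5.51) and 39.1% (37.2 to 41.1) for Ccl9 in CD150-high CD48-low and CD150-low CD48-high cells, whose median depths were 13334 and 16343. Of the tagged cells with 1 Ccl5 UMI, 80.0% (69.6 to 88.1) were CD150-low CD48-high, against 62.7% (61.2 to 64.2) of those with none. For Cxcl10 these shares were 64.9% (52.9 to 75.6) and 63.6% (62.1 to 65.1), so that its cells with 1 UMI cannot be told apart from free transcripts here. Doublet calling marked 0 of the 25 Cxcl10 cells and 0 of the 21 Ccl5 cells with 5 UMIs or more.

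CD150 and CD48 are the surface proteins by which LSK cells are commonly divided, the CD150-positive CD48-negative ones being richest in stem cells and the CD150-negative CD48-positive ones being mostly multipotent progenitors. Here CD150 tags were split at the 75th and CD48 tags at the 25th percentile of each suffix, which are relative cuts and not sort gates. Of the kept cells 3986 had tags: 555 were CD150-high CD48-low, 450 CD150-high CD48-high, 454 CD150-low CD48-low and 2527 CD150-low CD48-high.

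With these cuts the highest level of Cxcl10 was in CD150-high CD48-low cells, where it rested on 1 cell in each suffix, and that of Ccl5 was in CD150-low CD48-high cells. The Cxcl10 level was 71.0 CPM (65.1 to 77.3) in CD150-high CD48-low cells, 24.4 (21.3 to 27.8) in CD150-high CD48-high, 11.3 (8.63 to 14.5) in CD150-low CD48-low and 7.32 (6.58 to 8.12) in CD150-low CD48-high cells. The cell with the most Cxcl10 UMIs of each suffix (134 in suffix 1, 336 in suffix 2) lay in the first gate. Without these 2 cells that gate was at 8.54 (6.58 to 10.9), below CD150-high CD48-high cells, from which no cell was left out. The first gate went from 66.2 to 6.70 (3.75 to 11.05) in suffix 1, where CD150-high CD48-high cells were at 18.0. In suffix 2 it went from 73.1 to 9.33 (6.90 to 12.3), where they were at 31.0. The CD150-high CD48-high level also rested on few cells. A single cell held 80 of its 84 UMIs in suffix 1 and another 54 of its 138 in suffix 2, so the order of the 2 gates is not settled. The share of cells with a Cxcl10 UMI differed little, at 3.06% (1.79 to 4.86), 4.00% (2.39 to 6.25), 3.30% (1.86 to 5.39) and 2.57% (1.99 to 3.27) in the same order.

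The Cxcl10 level in CD150-low CD48-high cells was 0.103 times (0.0899 to 0.118) that in CD150-high CD48-low cells. Without the cell with 336 UMIs the ratio was 0.278 (0.233 to 0.332), and without the 2 highest cells the levels were 7.32 and 8.54 CPM, less than 2-fold apart. Among the 25 cells with 5 UMIs or more, 5 were CD150-high CD48-low, 9 CD150-high CD48-high, 3 CD150-low CD48-low and 8 CD150-low CD48-high. Thus 14 of 25 were CD150-high (56.0%, 34.9 to 75.6), against 25.1% (23.7 to 26.5) of the cells without Cxcl10, and their median CD150 tag count was 606 against 11. Cxcl10 therefore did not mark a progenitor gate in these cells: its highest counts occurred on both sides of the CD150 split.

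Ccl5 was highest in CD150-low CD48-high cells, at 15.6 CPM (14.5 to 16.7), against 0.931 (0.374 to 1.92) in CD150-high CD48-low cells, a ratio of 16.7 (8.07 to 41.7). The levels in the CD150-high CD48-high and CD150-low CD48-low gates were 4.18 (2.96 to 5.73) and 3.70 (2.26 to 5.71), whose intervals overlap. The share of holding cells followed, from 0.901% (0.293 to 2.09) to 4.43% (3.66 to 5.31). Of the 21 cells with 5 UMIs or more, 18 were CD150-low CD48-high, 1 was CD150-low CD48-low, 1 CD150-high CD48-high and 1 had no tags. With both tags cut at the 50th percentile the ratio was 2.11 for Ccl5 and 0.278 for Cxcl10. A stricter filter (under 5% mitochondrial UMIs, over 2500 genes) kept 372 cells, of which 23 were CD150-high CD48-low by the same cuts, with 0 Ccl5 UMIs and 1 Cxcl10 UMI. With the tag percentiles also taken anew from the 372 cells, 57 cells fell in that gate and both ratios turned, to 0.879 for Ccl5 and 1.45 for Cxcl10.

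Ccl3 and Ccl9 were also higher on the progenitor side, and the Ccl4 ratio between the same gates was near 1. The CD150-low CD48-high level over the CD150-high CD48-low level was 13.9 (9.0 to 22.9) for Ccl3 and 22.2 (14.9 to 34.7) for Ccl9. For Ccl4 it was 1.15 (1.03 to 1.30), and the Ccl4 level was highest in CD150-low CD48-low cells, at 71.2 CPM (64.3 to 78.7), and lowest in CD150-high CD48-high cells, at 34.7 (31.0 to 38.8). Cxcl2 gave 0.682 (0.338 to 1.52), an interval that includes 1, and Ccl2 had too few UMIs (12 and 2). Of the 6 members with 20 UMIs or more, Ccl5, Ccl3 and Ccl9 were thus past 2-fold up and Cxcl10, through its 2 highest cells, past 2-fold down, where 10.2% of 13476 genes were past 2-fold up and 12.1% past 2-fold down, so that ratios past 2-fold were common between these gates.

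Within the CD150-low CD48-high gate, Ccl3 and Ccl9 went with Flt3, which encodes a cytokine receptor of lymphoid-primed and myeloid-primed progenitors. Ccl3 had a UMI in 32.6% (30.5 to 34.8) of the 1874 cells with a Flt3 UMI and in 9.65% (7.49 to 12.2) of the 653 without, and Ccl9 in 46.7% (44.5 to 49.0) and 17.3% (14.5 to 20.4). Ccl5 was at 4.16% (3.31 to 5.17) and 5.21% (3.63 to 7.20), and Cxcl10 at 2.72% (2.03 to 3.56) and 2.14% (1.18 to 3.57), where the intervals overlap. Median depth was 17614 UMIs in the cells with Flt3 and 14072 in those without, and its part in these shares was not tested.

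**Figure D2:**
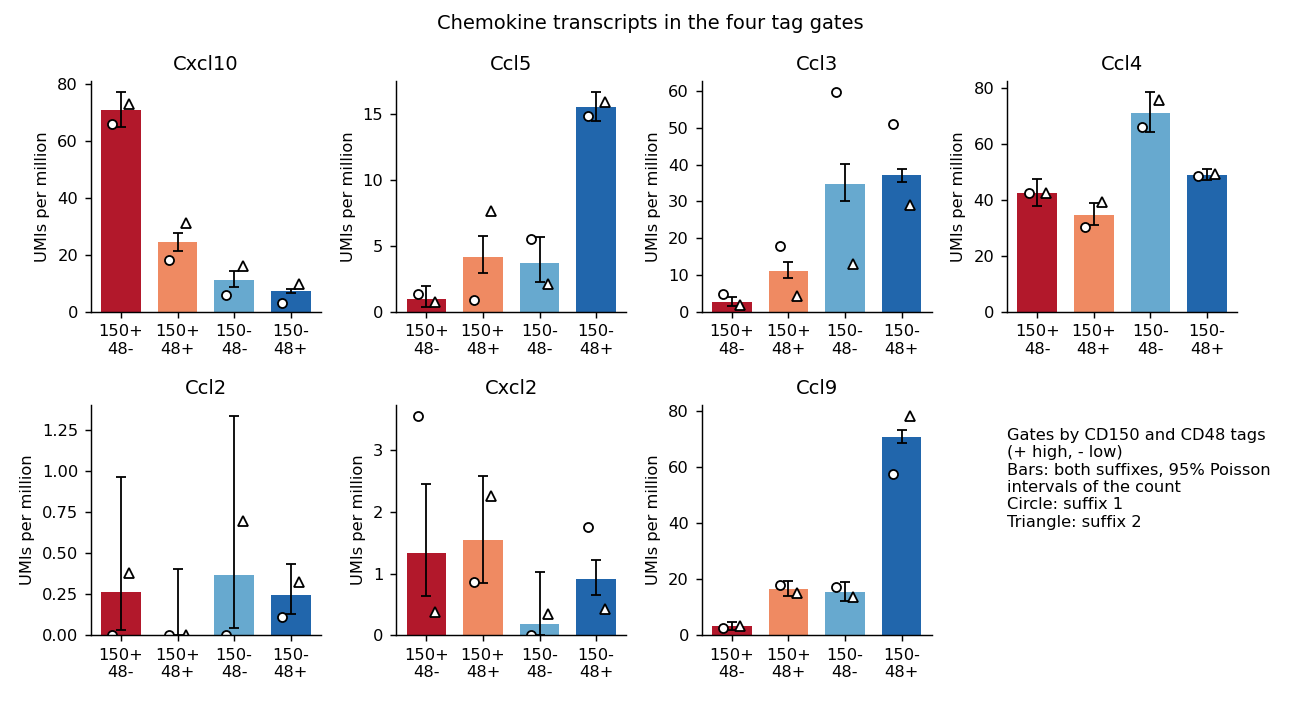
CPM of each chemokine (y axis, from 0) in the 4 gates set by CD150 and CD48 tags (x axis), as bars with exact 95% Poisson intervals and with suffix 1 (circles) and suffix 2 (triangles) drawn separately. Cxcl10 falls from 71.0 (8.54 without its 2 highest cells) to 7.32 across the gates while Ccl5 climbs from 0.931 to 15.6, and Ccl4 stays between 34.7 and 71.2.

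Between the suffixes, the ratio of suffix 2 to suffix 1 was 0.534 (0.490 to 0.582) for Ccl3, with 42.2 and 22.5 CPM in suffix 1 and 2. It was 1.37 (1.28 to 1.47) for Ccl9 and 1.06 (0.988 to 1.14) for Ccl4. Cxcl2 gave 0.376 (0.222 to 0.625) from 43 and 26 UMIs, and Ccl2 had 2 and 15 UMIs. Without its highest cell Cxcl2 gave 0.504 (0.289 to 0.874), no longer past 2-fold. The values of Cxcl10 and Ccl5 also turned on 1 cell each. Cxcl10 gave 1.78 (1.56 to 2.03), and 1.09 (0.946 to 1.26) without its highest cell. Ccl5 gave 1.19 (1.03 to 1.38), and 1.81 (1.53 to 2.14) without its highest cell. Of the 6 members with 20 UMIs or more, Cxcl2 was past 2-fold down and none past 2-fold up, where 1.52% of 13881 genes were past 2-fold down and 5.23% past 2-fold up. Age, mice and library cannot be told apart in a suffix.

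Few cells held both Cxcl10 and Ccl5, and the share was no lower than among the other cells. Of the 117 Cxcl10 cells, 7 held a Ccl5 UMI (5.98%, 2.44 to 11.9), against 3.29% (2.76 to 3.89) of the cells without Cxcl10, with overlapping intervals. All 7 were of suffix 2. At 5 UMIs or more the 25 Cxcl10 cells and the 21 Ccl5 cells shared 1 cell, with 5 Cxcl10, 25 Ccl5 and 7 Cxcl2 UMIs in a CD150-high CD48-high cell. That is 1 of 25 (4.0%, 0.101 to 20.4), against 20 of 4043 others (0.495%, 0.302 to 0.763). At equal depth 5.33% (1.47 to 13.1) of the Cxcl10 cells and 2.05% (1.62 to 2.56) of the others held Ccl5. In 3825 thinned cells the Pearson correlation of log2 counts between Cxcl10 and Ccl5 was 0.02.

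Ccl3, Ccl4 and Ccl9 overlapped more. Of the 824 Ccl3 cells, 52.9% (49.4 to 56.4) held Ccl4, against 40.1% (38.4 to 41.8) of the cells without Ccl3, and 47.8% (44.4 to 51.3) held Ccl9, against 23.0% (21.6 to 24.5). At equal depth the shares were 39.2% (35 to 43.4) against 28.3% (26.8 to 29.9) for Ccl4 and 36.2% (32.2 to 40.4) against 18.5% (17.2 to 19.9) for Ccl9. The highest Ccl3 cell, with 26 UMIs, held 39 Ccl4 UMIs, and the highest Ccl4 cell, with 42 UMIs, held 17 of Ccl3. Between Ccl4 and Ccl9 the shares were close at equal depth, with Ccl9 in 22.3% (19.9 to 24.8) of Ccl4 cells and 20.5% (18.9 to 22.0) of the others.

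**Figure D3:**
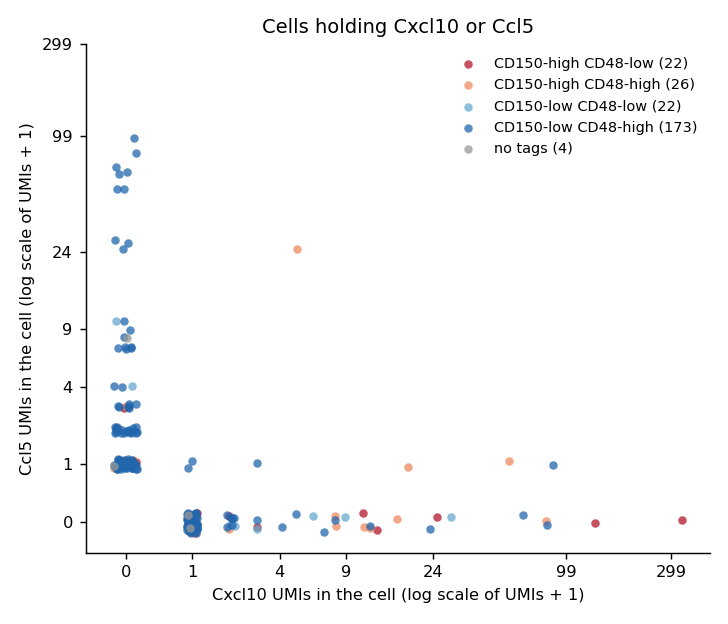
Cxcl10 UMIs (x axis) against Ccl5 UMIs (y axis) in the 247 cells holding either, on log scales of UMIs + 1 with a small horizontal and vertical offset, coloured by gate. The cells lie along the 2 axes, and 1 cell has 5 or more UMIs of both.

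The genes whose counts were most like Cxcl10 across the 3825 thinned cells were interferon-stimulated. Among genes detected in at least 2% of cells, the highest Pearson correlations were with Ifit3 (0.50), Mx1 (0.43), Ifit1 (0.38), Rsad2 (0.34), Ifit2 (0.29), Cmpk2 (0.29), Gbp4 (0.27), Isg15 (0.27), Usp18 (0.26) and Gm4951 (0.26). For Ifit3 the value was 0.52 in suffix 1 and 0.50 in suffix 2, and it was 0.22 without the 10 cells with the most Cxcl10. The points are cells of 2 libraries at equal depth, and the correlations are descriptions.

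The 25 cells with 5 or more Cxcl10 UMIs were set beside the 3951 with none. Levels are given as plain CPM, and 10 CPM was added to both only for the ratios. Ifit3, an interferon-induced antiviral gene, was at 543 against 3.95 CPM, and Ifit1, its neighbour in the same family, at 1278 against 28.0. Rsad2, which encodes the antiviral enzyme viperin, was at 770 against 21.9, and Mx1, an antiviral GTPase gene, at 190 against 2.46. Isg15, a ubiquitin-like modifier gene, was at 904 against 57.3, and Iigp1, of the interferon-inducible GTPases, at 850 against 67.7 with a UMI in all 25 cells.

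Of the interferon-stimulated list 32 of 37 genes were past 2-fold up and 0 past 2-fold down, with a median ratio of 5.26 against 0.946 over all genes compared. Over the 9951 genes compared, those found in at least 10% of the cells of either group, 2.47% were past 2-fold up and 1.4% past 2-fold down. Here and below, such shares up include the chemokine or chemokines that define the cells. The list summed to 16728 CPM against 3952. Irf7, a transcription factor gene of the response, was at 294 against 39.9, and the largest share of the sum came from Ifitm3, a restriction factor gene, at 3408 against 1388.

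The interferon genes Ifnb1, Ifng, Ifna2, Ifna4, Ifnl2 and Ifnl3 were at 0 in the 25 cells. They were also at 0 in the cells with 5 UMIs or more of Ccl5, Ccl3, Ccl4 or Ccl9, so their absence is not particular to Cxcl10 cells. Of the 15 genes of interferons, their receptors and signalling that could be compared, Irf1 (385 against 64.1 CPM) and Socs1 (139 against 17.3) were past 2-fold up. Of the NF-kB and Toll-like receptor list 7 of 22 were past 2-fold up, among them Nfkbia, which encodes the inhibitor that NF-kB induces, at 411 against 103, while Tnf, Il1a, Il1b and Il6 were at 0. Of the immediate early list 5 of 17 were past 2-fold up, with Junb at 402 against 141. Cxcl9, the neighbour of Cxcl10 and a ligand of the same receptor, was at 101 against 4.00, and Cxcr3, the receptor, was at 0.

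The level of the interferon-stimulated list was higher the more Cxcl10 a cell held, with a median of 3680 CPM in cells with 0 UMIs, 4052 with 1, 8209 with 2 to 4 and 14778 with 5 or more. The medians over the same classes of Ccl5 counts stayed between 3695 and 4419. The 95th percentile of the cells without Cxcl10 was 7642, and 20 of the 25 cells lay above it, 7 of 7 in suffix 1 and 13 of 18 in suffix 2. The other 5 lay below it, so that high Cxcl10 did not always come with a high interferon-stimulated level.

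The interferon-stimulated level was high on both sides of the CD150 split. In the 14 CD150-high cells with 5 Cxcl10 UMIs or more the list summed to 15181 CPM, against 4362 in CD150-high cells without Cxcl10, and in the 11 CD150-low cells to 18651 against 3816. The stem cell list summed to 2273 against 1724 on the CD150-high side and to 1543 against 987 on the other. That list holds Ly6a, itself known as an interferon-responsive gene, which was at 949 against 308 over all 25 cells. Without Ly6a the ratios were 0.9495 (0.846 to 1.06) and 0.892 (0.738 to 1.07), intervals that include 1. Of the 10 genes Ly6a, Mllt3 and Slamf1 were past 2-fold up. Without the cell with 336 UMIs the CD150-high cells held 14257 CPM of the interferon-stimulated list.

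Some genes of cycling and of lineage-primed progenitors were past 2-fold down in the cells with 5 Cxcl10 UMIs or more. Mki67, a marker of cycling cells, was at 32.9 against 146 CPM, Ccnb1, a mitotic cyclin gene, was at 0 and Dntt, a lymphoid polymerase gene, was at 49.3 against 225. Of the cycling list 3 of 8 were past 2-fold down and of the myeloid list 3 of 5. Of the lymphoid list 3 of 6 were past 2-fold down (Dntt, Satb1 and Ighm, whose level without the 12 immunoglobulin-rich cells was not computed). Of the erythroid and megakaryocyte list 1 of 4 was, and its summed ratio of 0.771 (0.580 to 1.004) has an interval that includes 1. Macrophages are a known source of CXCL10, and of the 13 genes of the macrophage and monocyte list 6 were at 0 in the 25 cells (C1qa, C1qb, C1qc, Adgre1, Vcam1 and Ccr2). Only 4 of the 13 reached 10% of the cells of either group, so zeros in 25 cells do not decide the cell type. The median ratio of these 4 was 0.952, against 0.946 over all genes compared. The list summed to 272 against 306 CPM, with cells ranging from 0 to 1159. It stood at 195 against 299.4 in CD150-high and at 369 against 307 in CD150-low cells. The lineage gene Itgam, which encodes CD11b, had a UMI in 2 of the 25 (8.0%, 0.984 to 26.0, against 18.0% of all kept cells). Cd3e, Cd4, Cd8a and Ly6g were at 0, and each was found in at most 1.08% of all kept cells. Kit and Ly6a were found in 21 and 24 of the 25.

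Starting from the interferon-stimulated list gave the converse. Of the 41 cells with its highest level (16 of suffix 1 and 25 of suffix 2), 20 held Cxcl10 (48.8%, 32.9 to 64.9) and together held 860 of its UMIs, 73.3% of the total. Of the next 164 cells 20 held it (12.2%, 7.61 to 18.2), and of the other 3863 cells 77 did (1.99%, 1.58 to 2.49). Ccl5 was held by 4 of the 41 (9.76%, 2.72 to 23.1) and by 3.29% (2.75 to 3.90) of the other 3863. Ccl4, at 51.2% (35.1 to 67.1) and 42.7% (41.2 to 44.3), differed by less than its interval. Thus Cxcl10 was the member that went with the interferon-stimulated level, although 21 of the 41 cells had none of it.

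**Figure D4:**
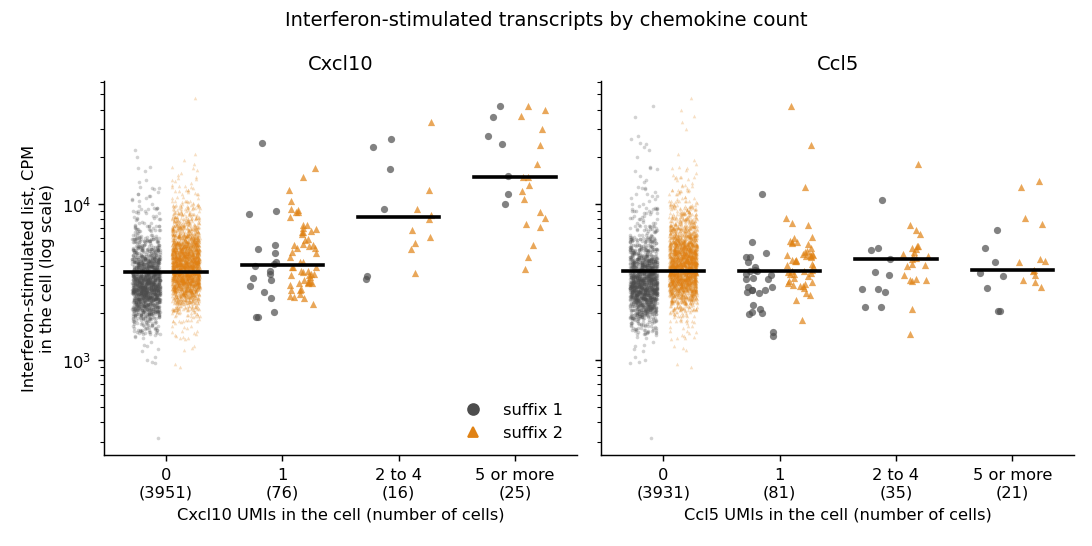
Summed level of the interferon-stimulated list in each cell (y axis, CPM, log scale) by the cell's Cxcl10 UMIs (left) or Ccl5 UMIs (right), with suffix 1 as circles and suffix 2 as triangles and black lines at the medians. The medians climb from 3680 to 14778 CPM across the Cxcl10 classes and stay between 3695 and 4419 across the Ccl5 classes.

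Ccl5 had no such companion genes. Its highest correlation across the 3825 thinned cells was 0.09, with Gimap4, and in suffix 1 that value was 0.01. Values this low are no finding in sparse counts, and no set of genes is named from them.

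The 21 cells with 5 Ccl5 UMIs or more were set beside the 3931 with none. Of 9686 genes 0.32% were past 2-fold up and 0.991% past 2-fold down. The highest ratios were for Cxcl9, at 48.3 against 4.60 CPM, and for the granule genes Ctsg (461 against 110) and Mpo (569 against 165). These rested on few cells, since Ctsg was found in 23.8% of the 21 cells and Mpo in 33.3%, against 13.5% and 27.5%. The myeloid list accordingly summed to 1870 against 1060 CPM, while the median cell held 740 against 728. Fcer1g, which encodes an Fc receptor chain of myeloid and NK cells, was at 156 against 52.5 and in 61.9% of the cells against 45.5%.

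Of the interferon-stimulated list 3 of 33 genes were past 2-fold up in the Ccl5 cells (Isg15, Ifit1 and Rsad2), with sums of 4413 against 4047 CPM. Of the NF-kB list 0 of 22 were past 2-fold in either direction, and of the stem cell list Mllt3 was past 2-fold down. T cells and NK cells are the known main source of CCL5, and Cd3e, Cd3d, Cd3g, Cd8a, Cd4, Gzma and Gzmb were at 0 in these 21 cells, as were the macrophage genes C1qa, C1qb and C1qc. Cd3e was also at 0 in all 4068 kept cells, and Cd8a and Cd4 were found in 0.123% and 1.08% of them. Of the 11 NK and T cell genes 1 reached 10% of the cells of either group, and of the 13 macrophage and monocyte genes 5 did. Zeros in 21 cells therefore do not decide the cell type. A single cell stood out: with 52 Ccl5 UMIs it held 20 UMIs of Ncr1, 10 of Klrd1 and 8 of Trbc2, NK and T cell genes that were at 0 in the other 20 cells. The NK and T cell list of 11 genes summed to 317 against 133 CPM, a ratio of 2.39 (1.97 to 2.86), with cells from 0 to 3813 and a median of 163 against 50.6. Without the cell with Ncr1 it summed to 184, a ratio of 1.39 (1.07 to 1.77). Nkg7, a cytotoxic granule gene also found in progenitors, was at 215 against 130 CPM and had a UMI in 13 of the 21. Kit was found in 17 and Ly6a in all 21, and Itgam, a myeloid integrin gene, in 4.

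The 114 cells with 5 Ccl3 UMIs or more were set beside the 3244 with none, where 0.247% of 9708 genes were past 2-fold up and 0.546% past 2-fold down. Transcripts of lymphoid-primed progenitors were among the 10 highest ratios: Dntt was at 531 against 157 CPM, Satb1, a chromatin organizer gene, at 184 against 63.3, and Flt3 at 302 against 109. Of the lymphoid list 3 of 6 were past 2-fold up. The highest ratio was for Wfdc17, at 412 against 86.2, and Wfdc18 was at 41.7 against 6.74. Both lie next to the chemokine cluster on chromosome 11, Wfdc17 39307 bases beyond Ccl4 and Wfdc18 2746 bases further. Apoe, which encodes a lipid carrier, was lower, at 54.5 against 368.

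Wfdc17, Flt3 and Satb1 were also the genes most like Ccl3 across cells, with correlations of 0.30, 0.28 and 0.25 that were much the same in suffix 1 (0.29, 0.26 and 0.25) and suffix 2 (0.28, 0.27 and 0.23). Cd69, an early activation gene, was at 135 against 34.8 CPM in the Ccl3 cells, and Btg2, an immediate early gene, at 192 against 69.7. Of the immediate early list 2 of 17 were past 2-fold up, Btg2 and Nr4a1. Of the 112 cells with tags 97 were CD150-low CD48-high, and 69 of the 114 were of suffix 1, the smaller library.

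The 107 cells with 5 Ccl4 UMIs or more differed least from the 2332 with none, with 0.0515% of 9700 genes past 2-fold up and 0.113% past 2-fold down. The first share includes Ccl4 itself, which defines the cells. Wfdc17 (355 against 105 CPM), Btg2 (186 against 70.4) and Dntt (419 against 188) were past 2-fold up, and so was the member Ccl3 (158 against 21.4). Cxcl10 (44.2 against 8.39) and Ccl5 (38.5 against 10.2) were found in 5 of the 107 cells each (4.67%, against 2.57% and 3.09%), under the 10% needed for a comparison. Across cells the genes most like Ccl4 were Rps9, Itm2b and Rps24, at correlations of 0.16, 0.15 and 0.15, which are weak and belong to transcripts found in every cell. Of the 104 such cells with tags, 77.9% (68.7 to 85.4) were CD150-low CD48-high, against 61.8% (59.8 to 63.8) of the cells without Ccl4.

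Ccl9 went with myeloid priming. In the 246 cells with 5 UMIs or more, against 2927 with none, 0.665% of 9931 genes were past 2-fold up and 1.66% past 2-fold down. The granule genes Ctsg (729 against 16 CPM), Mpo (912 against 50.8) and Elane (119 against 4.86) had the highest ratios, and Irf8, a transcription factor gene of monocyte and dendritic cell precursors, was at 120 against 23.6. Of the myeloid list 6 of 8 were past 2-fold up and of the stem cell list 8 of 10 past 2-fold down, with Hlf at 121 against 340 and Procr at 19.4 against 108. Of these cells 237 of 246 were CD150-low CD48-high. Their median depth was 25533 UMIs against 14039, and its part in these values was not tested.

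The correlation of Ccl9 across cells was 0.44 with Ctsg, 0.41 with Plac8 and 0.40 with Mpo. With Ctsg it was 0.19 in suffix 1 and 0.52 in suffix 2, and with Mpo 0.20 and 0.48, so that the value over all cells came mostly from suffix 2. Among the 246 cells 184 were of suffix 2.

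Cxcl2, with 4 cells of 5 UMIs or more, was not compared in this way. Those 4 held 11, 8, 7 and 5 UMIs. The first held 7 Ccl3 and 9 Ccl4 UMIs, the second 2 of Ccl4, the third 5 Cxcl10 and 25 Ccl5 and the fourth 1 of Ccl4. They lay in 3 different gates, and no gene had a correlation above 0.12 with Cxcl2.

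**Figure D5:**
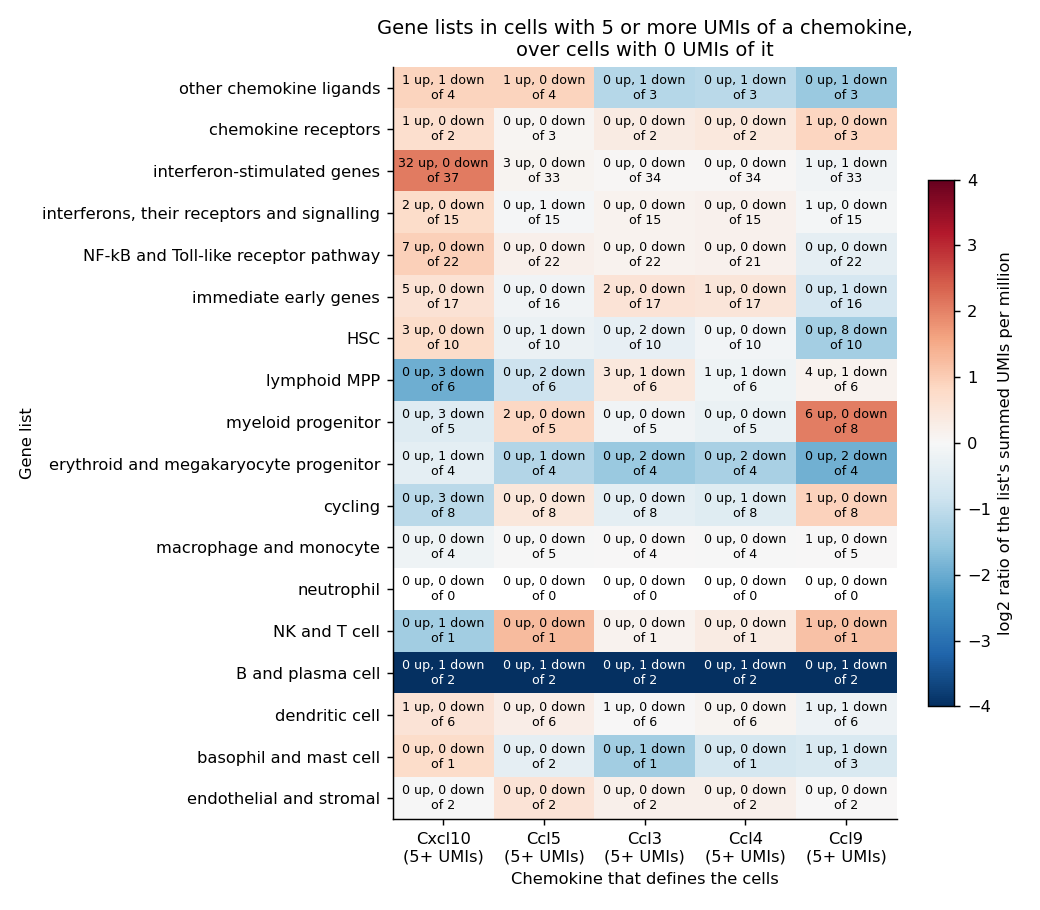
Gene lists (rows) in cells with 5 or more UMIs of a chemokine (columns) over cells with 0 UMIs of it, coloured by the log2 ratio of the list's summed CPM, with the number of genes past 2-fold up and down of those compared. Interferon-stimulated genes stand out for Cxcl10 (32 of 37 up) and myeloid genes for Ccl9 (6 of 8 up). The dark B and plasma cell row was not computed without the 12 immunoglobulin-rich cells, which lie mostly among the cells without each chemokine.

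Taking Cxcl10 and Ccl5 as a pair, the 247 cells holding either were set beside the 3821 holding neither. Of 9670 genes 0.186% were past 2-fold up and 0.0103% past 2-fold down. Of the interferon-stimulated list 11 of 36 were past 2-fold up, led by Ifit3 (68.3 against 3.87 CPM), Ifit1 (170 against 27.3) and Rsad2 (108 against 21.6). These are the genes of the Cxcl10 cells above. None of the genes compared in the other ligand, receptor, interferon signalling, NF-kB and immediate early lists was past 2-fold. The summed interferon-stimulated list was at 5752 against 3947, and the gene past 2-fold down was Ighm, an immunoglobulin gene. Its level without the 12 immunoglobulin-rich cells, of which 1 held a Ccl5 UMI, was not computed. A class made of both genes therefore carried the companions of Cxcl10 and averaged over cells that differed in gate and in transcripts.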

How the data were processed

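Sorted LSK cells of young and old mice were profiled by CITE-Seq (Chromium Single Cell 3′ v3, 1 library per age), with antibodies against CD150, CD48 and CLCA3A1 read as tags. The authors made the gene matrix with Cell Ranger 3.1.0 (mm10, GRCm38), scaling the libraries to each other in a mode not given in the sources used here, and deposited UMI counts per gene and cell. The deposited tag values are log10 of tag counts, all whole numbers to within 1e-06 after back-transformation, and cells with 0 tags ranked lowest. No column went unused (0).

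Cells were kept as in the study's filter, under 10% mitochondrial UMIs and over 1500 genes, which left out 620 of 4688, and kept cells held 2937 to 62221 UMIs. Levels are CPM, the UMIs of a gene per 1000000 UMIs summed over a group. The members, gene lists, marker lists and motifs were chosen with earlier results of these data known. With 1 library per age and no pairing of suffix and age, no test was run. Apart from the range of the depth ratio, 95% intervals and floors of 3 counts cover counting error only. Ratios between gates or suffixes used genes with 20 UMIs or more. Ratios between cells with and without a chemokine had 10 CPM added and used genes found in at least 10% of cells of either group, 2-fold marking a call. Named genes were the 10 highest and 5 lowest of those ratios in each comparison, of which the text gives those that bear on the comparison, beside list members past 2-fold and, for likeness, the 10 genes with the highest Pearson correlation with Cxcl10 or Ccl5 and the 3 with the highest for the others. Likeness used 11041 genes found in at least 2% of thinned cells. A cell's defining markers and the cell with Ncr1 were named after their values were seen.

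Thinning drew 9000 UMIs per cell (seed 1), leaving out 243 cells. Doublets were called with scrublet (scanpy 1.11.5, expected rate 0.06), which marked 37 cells (0.910%), and these were kept. Python 3.11.15, numpy 2.4.6, scipy 1.17.1, pandas 2.3.3 and matplotlib 3.10.9 were used, and the ratio and interval code was tested on simulated data. Alternatives were no cell filter, a stricter one (under 5% mitochondrial UMIs, over 2500 genes), thinning, each suffix alone, 2 UMIs as the minimum, leaving out the 10 cells with the most UMIs of the 7 genes, other tag percentiles, single gates and a mean over cells. Leaving out a gene's highest cell, the highest Cxcl10 cell of each suffix, the cell with Ncr1 or Ly6a, keeping the gates under the stricter filter, and requiring 5 UMIs of both genes were chosen after seeing the data. Cxcl11 and Mx2 of the lists were not found in the matrix.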

Additional observations from a re-analysis of the deposited data

Results flagged for a closer look

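Chemokine transcripts were also present in the 620 cells that the filter left out, which no comparison used and whose median depth was 3936 UMIs. These cells held 8 UMIs of Cxcl10, 8 of Ccl5, 70 of Ccl3, 175 of Ccl4 and 49 of Ccl9, each above the 3 counts that a count of 0 allows. Levels were 2.66 CPM (1.15 to 5.24) for Cxcl10 and 2.66 (1.15 to 5.24) for Ccl5, and the highest counts in a cell were 2 and 3, so that no cell with 5 UMIs or more of either was left out. Ccl3 stood at 23.3 (18.1 to 29.4), Ccl4 at 58.2 (49.9 to 67.5) and Ccl9 at 16.3 CPM (12.1 to 21.5). Cell damage and cell type cannot be told apart in these cells.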

How the results depend on the processing

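The values for Cxcl10 and Ccl5 rested on few cells. The gate ratio of Cxcl10 (0.103) was 0.0480 in suffix 1, 0.133 in suffix 2, 0.278 without its highest cell (7.32 over 8.54 CPM without that of each suffix), 0.278 with cuts at the 50th percentile and 0.455 without the 10 cells with the most UMIs of the 7 genes together. That of Ccl5 (16.7) was 2.11 with cuts at the 50th percentile. Under the stricter filter, which kept 372 cells with 2 of the 25 high Cxcl10 cells and 5 of the 21 high Ccl5 cells, and with the tag percentiles set again in those cells, both turned, to 1.45 for Cxcl10 (10 UMIs in the 57 CD150-high CD48-low cells) and 0.879 for Ccl5 (29 UMIs, 25 of them in 1 cell). With the gates of all kept cells Cxcl10 turned to 4.64, from 1 UMI in 23 CD150-high CD48-low cells, Ccl5 had 0 UMIs there against 179 and gave no ratio, and 2 members with a ratio were past 2-fold (4 in all kept cells). Under that filter the Ccl5 share was 6.72%, the share of Cxcl10 cells with Ccl5 25%, the suffix ratios 9.72 for Cxcl10 and 11.3 for Ccl5 and the depth ratio 0.999.

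The suffix ratio of Cxcl10 (1.78) was 1.26 at equal depth, 1.42 as a mean over cells, 1.09 without its highest cell, 2.53 without those 10 cells, 3.05 within CD150-low CD48-high and 1.10 within CD150-high CD48-low cells. That of Ccl5 (1.19) was 1.81 without its highest cell and 1.97 without those 10 cells, and it turned to 0.570 within CD150-high CD48-low cells, from 7 UMIs. Counting Ccl2, 2 members were past 2-fold between suffixes and 1 without each gene's highest cell, where Cxcl2 gave 0.504. The shares of Cxcl10 and Ccl5 were 1.96% and 2.12% at equal depth and 1.01% and 1.38% at 2 UMIs or more, where the depth ratio was 1.01. In suffix 1 alone the Cxcl10 share was 2.10% and 0% of Cxcl10 cells held Ccl5. The list genes past 2-fold up in cells holding either gene (11) numbered 21 at equal depth, 27 at 2 UMIs or more and 4 within CD150-low CD48-high cells, and those past 2-fold down (0) numbered 1 at 2 UMIs or more and 1 in suffix 2. The causes were not tested. Of the alternatives for these results 68 kept the value within its interval or count, 33 moved it and 4 turned it, and of those for the other members 100 did and 38 did not.

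No paired analysis was possible because each age had 1 library and the result comes from no test. Depth limits Ccl2 and Cxcl2, with 17 and 69 UMIs in all, to detection.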
